A study of Mus musculus with 26 samples.

Results

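The genes described here encode the laminin chains, the nidogens and the heparan sulfate proteoglycans of the vascular basement membrane. They were chosen by symbol as 10 rows of a count table of 21119 genes: the laminin alpha chains Lama2, Lama4 and Lama5, the beta chains Lamb1 and Lamb2, the gamma chain Lamc1, the nidogens Nid1 and Nid2, perlecan (Hspg2) and agrin (Agrn). All 10 were in the table and passed the filter on low counts that left 13884 genes for testing. The rule names symbols and uses no threshold, but the genes were chosen with earlier results of these data known. Shares among the 10 set beside those of all genes are therefore descriptive.

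A basement membrane is a thin sheet of matrix under the endothelium and around each smooth muscle cell. Laminin is secreted as a trimer of 1 alpha, 1 beta and 1 gamma chain, and the trimers polymerise at the cell surface, where integrins and dystroglycan bind the alpha chain. Type IV collagen forms a separate network, and nidogens and perlecan bind to both and hold them together. Endothelial cells are known to make laminins with the alpha chains Lama4 and Lama5, whereas Lama2 is the alpha chain best known from muscle and Schwann cells.

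RNA was sequenced from the aortae of C57BL6/J mice in which the abdominal segment had been wounded by mechanical pressure. The endothelial fraction was a flush of the vessel lumen with RLT lysis buffer, and libraries were made with the NuGEN Ovation Ultralow V2 kit. Abdominal flushes of 9 mice, taken 48 h after wounding, made up the injured 48 h group, and abdominal flushes of another 5 mice, taken 3 h after wounding, the injured 3 h group. The thoracic segment of the first 9 mice, flushed at 48 h, gave the uninjured 48 h group. The tissue 48 h group held the abdominal vessel left after the flush in 3 of those 9 mice, here called the wall. Every replicate was a separate mouse, in 3 experimental batches. The uninjured segment came from wounded animals and from another part of the aorta, so injury and segment cannot be told apart in any comparison with it. Column headers of the count table call the 3 h group 0 h, and its time is taken here from the sample labels.

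Injured 48 h libraries held 3904901 to 11982411 counts, injured 3 h libraries 2657169 to 4346847, uninjured libraries 1755773 to 5294304 and wall libraries 13853003 to 15560008. The 10 genes held between 0.120% and 0.268% of a library's counts. All 12 endothelial markers had counts in every group, and their summed level was 7602 to 11593 CPM (counts scaled to the library total with TMM factors) in the injured 48 h flush, 14601 to 16770 in the injured 3 h flush, 12435 to 14596 in the uninjured flush and 2210 to 3342 in the wall. The injured 48 h library of mouse E2A stood apart: its 10 fibroblast markers summed to 10516 CPM, against at most 1783 in the other injured 48 h flushes, and its 5 mesothelial markers to 464 CPM, against at most 14.2. For the log2 differences of the 10 genes and of the chain ratios described below, both values are given where leaving this library out changed the call or moved the value by over 1.5 times. Calls of genes outside the 10 were not compared with and without it. In such bulk samples, fewer cells of a type and less RNA per cell cannot be told apart.

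On build GRCm38 (GENCODE M21) the alpha chain genes lie at chr10:26980036-27619758 (Lama2, minus strand), chr10:38965515-39110188 (Lama4, plus) and chr2:180176373-180225859 (Lama5, minus). The beta chain genes lie at chr12:31265234-31329644 (Lamb1, plus) and chr9:108479736-108490530 (Lamb2, plus), and Lamc1 at chr1:153218922-153332786 (minus). Nid1 lies at chr13:13437551-13512269 (plus), Nid2 at chr14:19751265-19811787 (plus), perlecan at chr4:137468769-137570630 (plus) and agrin at chr4:156165290-156197488 (minus). Lama2, Nid1 and Nid2 share 631, 143 and 437 exon bases with a gene on the opposite strand, and reads of such a pair cannot be told apart without the strand setting.

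Per kilobase of exon, the most abundant of these transcripts in every flush group was Nid1 or perlecan. Nid1 averaged 88.4 CPM per kb in the injured 48 h flush, 59.9 in the injured 3 h flush, 55.9 in the uninjured flush and 59.2 in the wall. Perlecan averaged 42.3 CPM per kb in the injured 48 h flush, 45.9 in the injured 3 h flush, 65.6 in the uninjured flush and 43.3 in the wall. Lamc1, the only gamma chain among the 10, averaged 41.7 CPM per kb in the injured 48 h flush, 28.9 in the injured 3 h flush, 20.4 in the uninjured flush and 47.9 in the wall. The alpha chains were lower. Summed over Lama2, Lama4 and Lama5 they reached 16.4 CPM per kb in the injured 48 h flush, 25.5 in the injured 3 h flush, 10.7 in the uninjured flush and 30.8 in the wall. In the uninjured flush the 3 lowest were Lama2 at 1.06 CPM per kb, Lamb1 at 0.233 and Nid2 at 0.0179.

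**Figure D1:**
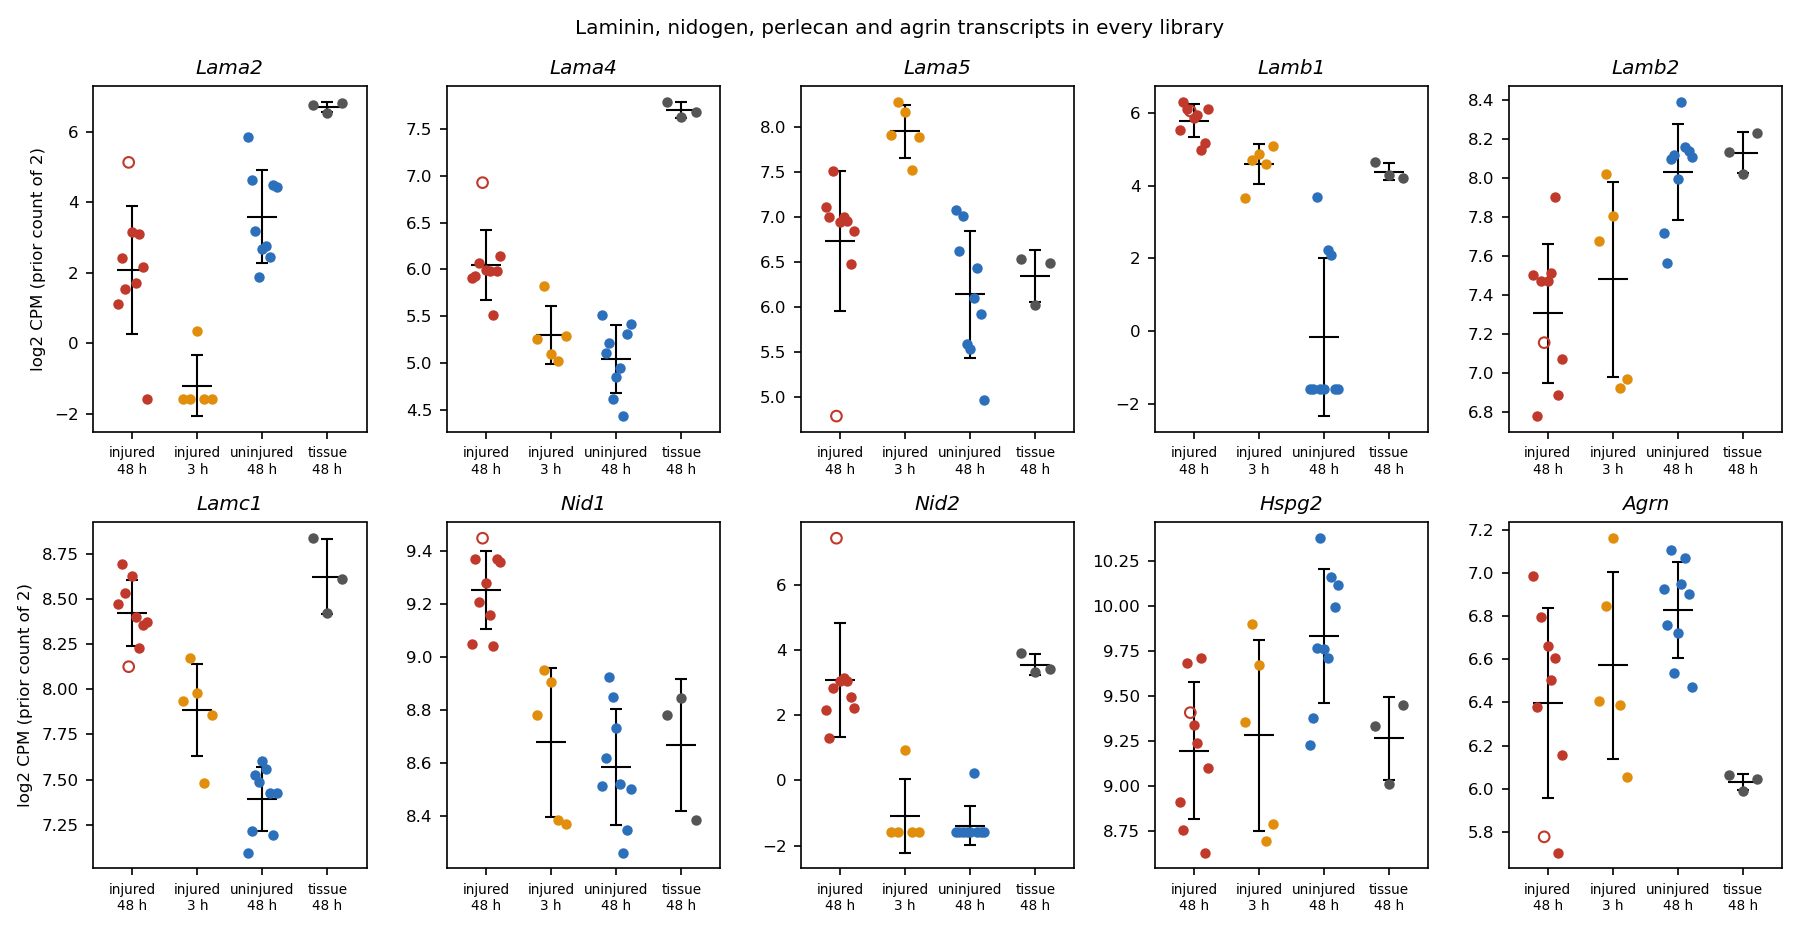
Log2 CPM (TMM-scaled, prior count 2) of the 10 genes in each of the 26 libraries, 1 panel per gene, with the injured 48 h, injured 3 h, uninjured 48 h and tissue 48 h groups from left to right; points are libraries, bars are mean ± SD, and the open circle is the injured 48 h library of mouse E2A. Lamc1 and Lamb1 in the injured 48 h flush lie above every uninjured flush, and the E2A circle lies far from its group for Lama5 and Nid2.

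At 48 h after injury the gamma chain Lamc1, the beta chain Lamb1, the alpha chain Lama4 and both nidogens were higher in the injured flush than in the uninjured flush, and Lamb2, perlecan and agrin were lower. Of the 10 genes, 5 were called higher and 3 lower (edgeR quasi-likelihood test, Benjamini-Hochberg adjusted p under 0.05), whereas 42.7% of all genes tested were called in this comparison, 24.6% higher and 18% lower. The median log2 difference was 0.62 over the 10 genes and 0.18 over all genes tested. The ranges of the groups did not overlap for 4 genes (Lamb1, Lamc1, Nid1 and Nid2), and that held for 8.28% of all genes.

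At 3 h, Lama5, Lamb1 and Lamc1 were called higher in the injured 3 h flush than in the uninjured flush, Lama2 and Lamb2 were called lower, and 5 genes did not pass. Over all genes, 27.1% were called in this comparison, 16.1% higher and 11.1% lower. The median log2 difference was 0.18 over the 10 genes and 0 over all genes. Ranges did not overlap for Lama2 and Lama5, and that held for 8.32% of all genes.

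Set directly against the 3 h flush, the 48 h flush had more Lama2, Lama4, Lamc1, Nid1 and Nid2 and less Lama5. That made 5 genes higher and 1 lower, where 18.3% of all genes were called, 9.7% higher and 8.59% lower. The median log2 difference was 0.55 over the 10 genes and 0.09 over all genes. Ranges did not overlap for Lama5, Nid1 and Nid2, and that held for 9.51% of all genes. The 48 h flushes are shared by this comparison and that with the uninjured flush, and the 3 h flushes likewise, so the comparisons are not independent of each other.

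**Figure D2:**
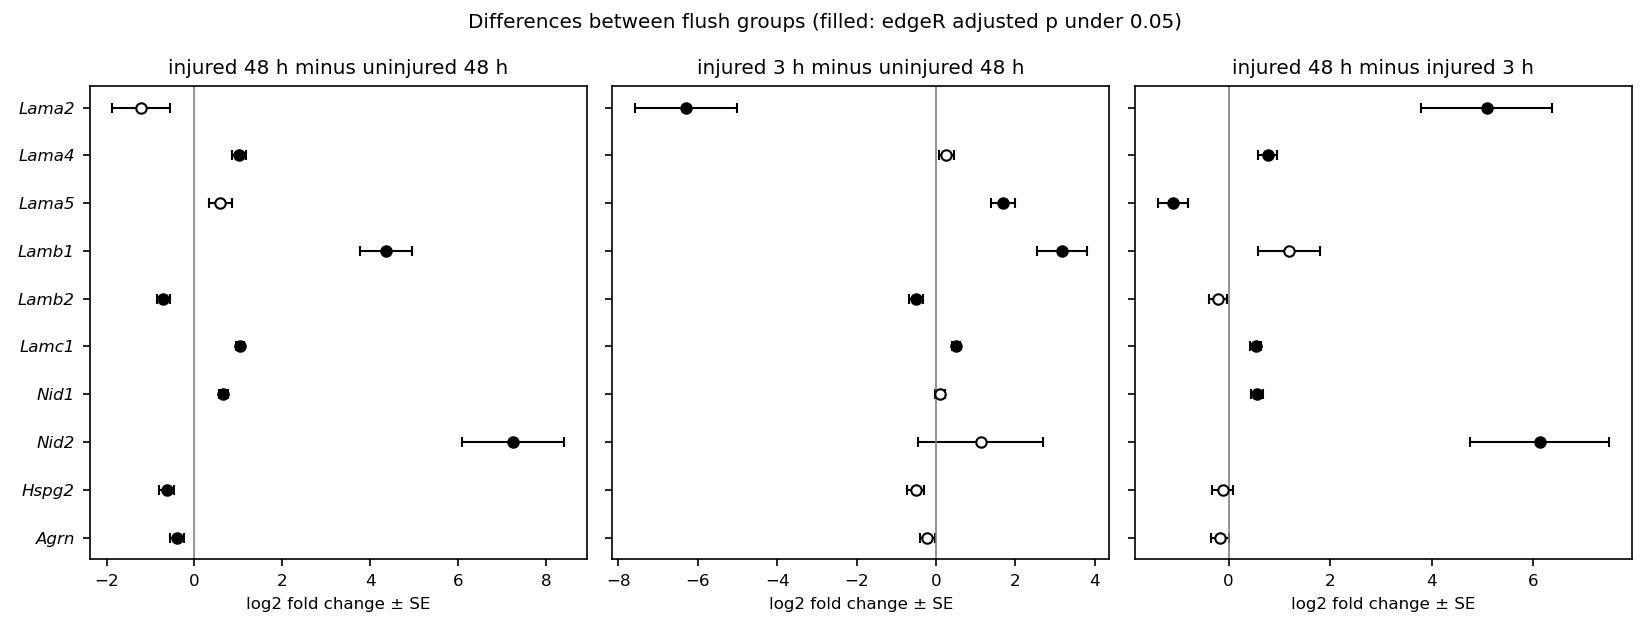
Log2 difference with its SE for each of the 10 genes in the 3 comparisons among flushes (injured 48 h minus uninjured 48 h, injured 3 h minus uninjured 48 h, injured 48 h minus injured 3 h); filled points have an edgeR adjusted p under 0.05. Lama5 is highest at 3 h, and Nid1 passes against the uninjured flush at 48 h and not at 3 h.

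Lamc1, the gamma chain of nearly all vascular laminins, had the smallest adjusted p of the 10 genes at 48 h. It ran from 279 to 414 CPM in the injured 48 h flush with a median of 337, was 178, 231, 245, 252 and 288 CPM in the injured 3 h flush, and ran from 136 to 194 CPM in the uninjured flush with a median of 172. Every injured 48 h flush lay above every uninjured flush, and the injured 3 h values reached from inside the uninjured range to inside the injured 48 h range. The means were 345 ± 43.2 CPM in the injured 48 h flush and 169 ± 20.4 CPM in the uninjured flush (SD, n = 9 each), a log2 difference of 1.03 ± 0.09 (SE, edgeR adjusted p = 8.03e-09). Lamc1 was higher in the injured segment of 9 of 9 mice, and by 1.31, 0.86 and 0.98 within batches 1, 2 and 3. Within-batch values at 3 h rest on 2, 2 and 1 injured 3 h libraries. At 3 h the log2 difference from the uninjured flush was 0.50 ± 0.11 (edgeR adjusted p = 0.00109). It was 0.75, 0.20 and 0.48 within the batches, and with batch 1 left out it was 0.33 and did not pass (adjusted p = 0.073). Between 48 h and 3 h it was 0.53 ± 0.11 (edgeR adjusted p = 0.00129).

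Against the uninjured flush, the beta chains went opposite ways. Lamb1, the beta chain of trimers such as laminin-411 and laminin-511, ran from 31.4 to 78.8 CPM in the injured 48 h flush with a median of 60.7, and was 12.3, 23.7, 25.9, 28.7 and 33.9 CPM in the injured 3 h flush. In the uninjured flush 6 of 9 libraries had no count, and the other 3 had 3.91, 4.38 and 12.5 CPM (mice E3A, E2C and E1C). Every 48 h flush of the injured segment lay above every uninjured flush, and at 3 h the lowest library lay just inside the uninjured range. The log2 difference from the uninjured flush was 4.36 ± 0.60 at 48 h (edgeR adjusted p = 3.29e-06) and 3.17 ± 0.63 at 3 h (edgeR adjusted p = 0.000439). Within batches it was 3.76, 5.06 and 4.73 at 48 h, and 1.97, 3.81 and 4.29 at 3 h. The 48 h flush averaged 57.0 ± 16.1 CPM (SD, n = 9) and the 3 h flush 24.9 ± 8.02 CPM (SD, n = 5), and this difference of 1.19 ± 0.62 did not pass (edgeR adjusted p = 0.188) unless only these 2 groups were fitted (1.17, adjusted p = 0.00299).

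Lamb2, which can take the place of Lamb1 in the trimer, was the more abundant beta chain per kb in all 4 groups. It ran from 110 to 239 CPM in the injured 48 h flush with a median of 177, was 121, 125, 204, 224 and 260 CPM in the injured 3 h flush, and ran from 189 to 336 CPM in the uninjured flush with a median of 276. The ranges overlapped, yet the injured segment was the lower one in 9 of 9 mice. The log2 difference was -0.71 ± 0.15 at 48 h (edgeR adjusted p = 0.00062), and -0.49, -0.77 and -0.77 within batches. At 3 h it was -0.51 ± 0.18 (edgeR adjusted p = 0.0406), a call that held in 6 of 14 fits that left out 1 library. Within batches it was 0.04, -0.75 and -1.19 at 3 h, so batch 1 did not share the direction. Between 48 h and 3 h the difference was -0.20 ± 0.18 (edgeR adjusted p = 0.464).

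The stretches in front of these 2 genes differ in base composition and are shown because the pair differed in opposite directions between the injured and the uninjured flush. Both are RefSeq promoter windows on GRCm38.p6, printed 5′ to 3′ on the gene's strand up to the base before the first exon, at chr12:31265043-31265233 (plus strand) for Lamb1 and at chr9:108479612-108479735 (plus strand) for Lamb2. Capitals mark matches to any of the motifs searched on both strands: TGANTCA (AP-1), GGGCGG (Sp1), CCGGAA (ETS), GGAATG (TEAD) and CACGTG (E-box).
Lamb1: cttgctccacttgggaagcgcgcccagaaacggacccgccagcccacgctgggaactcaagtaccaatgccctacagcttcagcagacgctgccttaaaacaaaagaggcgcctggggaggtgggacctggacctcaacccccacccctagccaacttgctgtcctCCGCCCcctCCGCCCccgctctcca
Lamb2: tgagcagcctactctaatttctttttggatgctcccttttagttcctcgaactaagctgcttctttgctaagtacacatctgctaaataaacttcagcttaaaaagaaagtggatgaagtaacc
The Lamb1 stretch holds 2 matches to the Sp1 letters on the minus strand, and the Lamb2 stretch holds no match to any motif. Of 32851 mouse promoter windows of 250 bases, 32.742% held the Sp1 letters, 6.749% the AP-1 letters, 12.03% the ETS letters, 12.642% the TEAD letters and 6.021% the E-box letters. The printed stretches are shorter, at 191 bases for Lamb1 and 124 for Lamb2, so a match in them is less likely. In their full windows of 250 bases the matches were the same, 2 to the Sp1 letters for Lamb1 and none for Lamb2. Promoter entries were matched for 7 of the 10 genes. A match describes the letters and not a bound site.

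Lama5, the alpha chain of the laminin-511 and laminin-521 trimers, stood out at 3 h. It was 184, 237, 241, 288 and 311 CPM in the injured 3 h flush, and ran from 31.1 to 135 CPM in the uninjured flush with a median of 68.4. Every 3 h flush lay above every uninjured flush, with a log2 difference of 1.69 ± 0.30 (edgeR adjusted p = 0.000124) that was 1.19, 2.11 and 1.95 within batches. In the injured 48 h flush Lama5 was 27.4 CPM in mouse E2A and 88.8 to 182 CPM in the other 8, with a median of 124 over all 9. Every 48 h flush lay below every 3 h flush, and the log2 difference was -1.10 ± 0.30 (edgeR adjusted p = 0.00987), or -0.97 without mouse E2A. Within batches it was -0.84, -1.31 and -1.09, and with batch 3 left out the call was lost (-1.07, adjusted p = 0.0679). The means were 117 ± 41.5 CPM at 48 h (SD, n = 9) and 252 ± 49.4 CPM at 3 h (SD, n = 5).

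Whether Lama5 passed against the uninjured flush at 48 h depended on 1 library and on whether the flushes of a mouse were paired. The log2 difference was 0.59 ± 0.26 and did not pass (edgeR adjusted p = 0.071), whereas without mouse E2A it was 0.72 and passed (adjusted p = 0.00946). It also passed with the mouse as a replicate block (0.62, adjusted p = 0.039), and 8 of 9 mice had more Lama5 in the injured segment. Within batches the difference was 0.34, 0.80 and 0.87. The RefSeq window before Lama5 (GRCm38.p6, chr2:180225860-180226109, minus strand, printed 5′ to 3′ on the gene's strand) is shown because Lama5 was highest in the injured 3 h flush, with motif matches in capitals as above.
Lama5: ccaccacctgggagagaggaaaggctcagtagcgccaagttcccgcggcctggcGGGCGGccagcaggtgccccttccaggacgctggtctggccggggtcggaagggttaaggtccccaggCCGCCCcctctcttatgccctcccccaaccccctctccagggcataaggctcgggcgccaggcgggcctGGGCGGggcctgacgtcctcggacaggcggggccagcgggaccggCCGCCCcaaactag
It holds 4 matches to the Sp1 letters and none to the other 4 motifs.

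Lama4, the alpha chain of laminin-411 and the other main endothelial alpha chain, was higher than in the uninjured flush at 48 h and did not pass at 3 h. It was 121 CPM in mouse E2A and 45.4 to 70.2 CPM in the other 8 injured 48 h flushes, with a median of 63.2 over all 9. It was 32.1, 34.1, 38.0, 38.9 and 56.2 CPM in the injured 3 h flush, and ran from 21.3 to 45.5 CPM in the uninjured flush with a median of 34.2. The 48 h range touched the upper end of the uninjured range, and the 3 h values lay mostly inside it. The log2 difference from the uninjured flush was 1.02 ± 0.16 at 48 h (edgeR adjusted p = 2.11e-05) and 0.88 without mouse E2A (adjusted p = 1.35e-05). It was 0.73, 1.57 and 0.83 within batches, and 9 of 9 mice had more Lama4 in the injured segment. At 3 h it was 0.26 ± 0.19 (edgeR adjusted p = 0.348). Between 48 h and 3 h it was 0.77 ± 0.19 (edgeR adjusted p = 0.00624), or 0.62 without mouse E2A, and 0.45, 1.33 and 0.64 within batches. That call was lost when batch 2 was left out (0.50, adjusted p = 0.128).

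Lama2, the alpha chain of the muscle laminins, was nearly absent from the injured 3 h flush. Mouse C2A had 0.937 CPM there, from 3 counts, and the other 4 libraries had none. The uninjured flush ran from 3.33 to 57.9 CPM with a median of 8.86, so the groups did not overlap. The summed counts per total in the 3 h flush were 0.0146 times those in the uninjured flush (exact 95% counting interval 0.00301 to 0.0431), and edgeR gave a log2 difference of -6.30 ± 1.29 (adjusted p = 0.000596). At 48 h Lama2 was 34.8 CPM in mouse E2A, no count in mouse E3C, and 1.82 to 8.56 CPM in the other 7 injured flushes, with a median of 4.11. At 48 h, 8 of 9 injured flushes lay below the uninjured median, and 6 of 9 mice had less Lama2 in the injured segment. The log2 difference from the uninjured flush was -1.22 ± 0.66 and did not pass (edgeR adjusted p = 0.135), whereas without mouse E2A it was -2.04 (adjusted p = 0.00794). Within batches it was -3.22, 1.52 and -1.98, with batch 2 holding mouse E2A. Against the 3 h flush, the 48 h flush had 26.7 times the counts per total (exact 95% counting interval 9.07 to 130), a log2 difference of 5.08 ± 1.29 (edgeR adjusted p = 0.00661) and of 4.26 without mouse E2A. That call was lost when batch 1 was left out (4.85, adjusted p = 0.067).

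Nid1, the nidogen that binds the laminin gamma chain and links it to type IV collagen, was higher than in the uninjured flush at 48 h and did not pass at 3 h. It ran from 527 to 699 CPM in the injured 48 h flush with a median of 622, was 331, 334, 440, 479 and 495 CPM in the injured 3 h flush, and ran from 307 to 486 CPM in the uninjured flush with a median of 368. Every injured 48 h flush lay above every uninjured flush and above every 3 h flush, and the 3 h flushes lay within or just above the uninjured range. The log2 difference from the uninjured flush was 0.66 ± 0.10 at 48 h (edgeR adjusted p = 1.17e-05), with 9 of 9 mice higher and 0.55, 0.61 and 0.90 within batches. At 3 h it was 0.10 ± 0.12 (edgeR adjusted p = 0.581). Between 48 h and 3 h it was 0.56 ± 0.12 (edgeR adjusted p = 0.00152), and 0.39, 0.65 and 0.92 within batches.

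The promoter stretch of Nid1 (RefSeq window on GRCm38.p6, chr13:13437352-13437550, plus strand, 5′ to 3′ up to the base before the first exon) is shown because Nid1 was higher in the injured 48 h flush than in the other flushes, with motif matches in capitals as above.
Nid1: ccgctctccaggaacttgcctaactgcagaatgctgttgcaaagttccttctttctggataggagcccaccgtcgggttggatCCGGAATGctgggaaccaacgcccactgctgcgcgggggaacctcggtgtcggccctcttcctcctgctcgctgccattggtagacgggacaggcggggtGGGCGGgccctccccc
The capitals in the middle are a match to the ETS letters and one to the TEAD letters that overlap each other, and those near the 3′ end are 1 match to the Sp1 letters. Lamc1 and Nid2 had no matched entry.

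Nid2, the second nidogen, had hardly any counts outside the injured 48 h flush and the wall. All 9 injured 48 h flushes had counts, with 171 CPM in mouse E2A, 2.12 to 8.49 CPM in the other 8 and a median of 6.73. The injured 3 h flush had 1.56 CPM in mouse C2A, from 5 counts, and none in the other 4. The uninjured flush had 0.835 CPM in mouse E2C, from 4 counts, and none in the other 8. All 48 h flushes therefore lay above all other flushes, at a level that in 8 of them was a small part of that in mouse E2A. Over the group, 599 of 1006 counts came from mouse E2A. With mouse E2A included, the 48 h flush had 89.8 times the counts per total of the uninjured flush (exact 95% counting interval 35 to 330). It had 41.1 times those of the 3 h flush (17.6 to 127). These 2 ratios were not recomputed without mouse E2A, and their intervals do not cover variation between mice. The log2 differences were 7.26 ± 1.16 (edgeR adjusted p = 2.41e-05) and 6.13 ± 1.37 (edgeR adjusted p = 0.00233). Without mouse E2A they were 5.31 (adjusted p = 4.69e-05) and 4.11 (adjusted p = 0.00631). Between 3 h and the uninjured flush, at 5 against 4 counts, the difference was 1.13 ± 1.58 (edgeR adjusted p = 0.646).

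**Figure D3:**
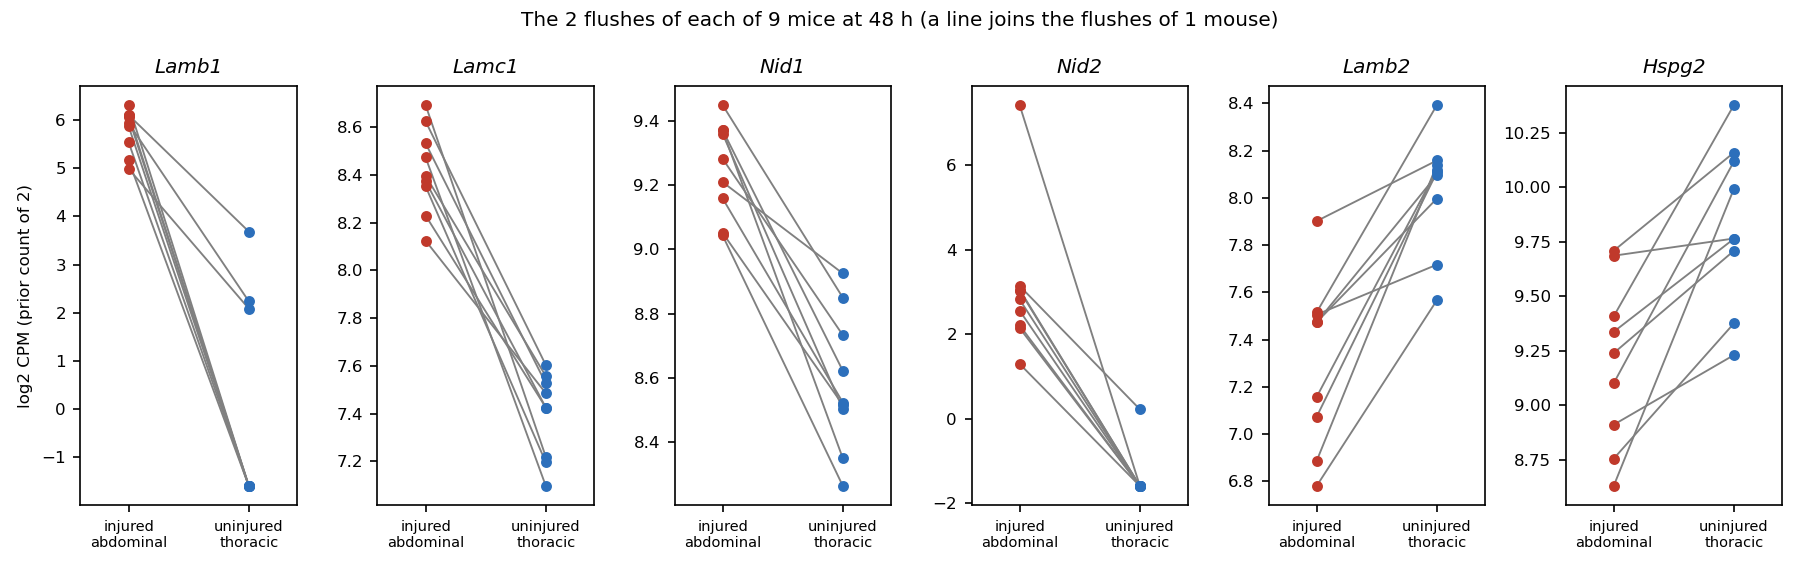
Log2 CPM (TMM-scaled, prior count 2) of Lamb1, Lamc1, Nid1, Nid2, Lamb2 and Hspg2 in the injured abdominal flush (left) and the uninjured thoracic flush (right) of the same 9 mice at 48 h, with a line joining the 2 flushes of each mouse. Lamb1, Lamc1, Nid1 and Nid2 are higher in the injured flush of 9 of 9 mice, and Lamb2 and Hspg2 are lower in 9 of 9.

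Perlecan, the large heparan sulfate proteoglycan of the vessel wall, was lower in the injured flush at 48 h. It ran from 396 to 837 CPM in the injured 48 h flush with a median of 604, was 414, 442, 654, 816 and 955 CPM in the injured 3 h flush, and ran from 600 to 1330 CPM in the uninjured flush with a median of 870. The ranges overlapped, and the injured segment was lower in 9 of 9 mice. The log2 difference from the uninjured flush was -0.63 ± 0.18 at 48 h (edgeR adjusted p = 0.00605), and -0.26, -0.64 and -0.87 within batches. The call was lost when batch 2 (-0.60, adjusted p = 0.0547) or batch 3 (-0.49, adjusted p = 0.0907) was left out. At 3 h the difference was -0.52 ± 0.21 and did not pass (edgeR adjusted p = 0.073). With DESeq2's Wald test it was -0.57 and passed (adjusted p = 0.0244), and the authors' deposited table also has Hspg2 lower at 3 h, with a log2 fold change of -0.57 and an adjusted p of 0.0252. That was the 1 call in which the authors' deposited tables and the edgeR test differed over the 10 genes and 6 comparisons.

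Agrin, the proteoglycan best known for clustering acetylcholine receptors at the neuromuscular junction and a ligand of dystroglycan, showed small differences among the flushes. It ran from 51.8 to 126 CPM in the injured 48 h flush with a median of 90.3, was 66.2, 83.4, 84.5, 115 and 143 CPM in the injured 3 h flush, and ran from 88.3 to 138 CPM in the uninjured flush with a median of 119. The ranges overlapped widely. At 48 h the log2 difference was -0.39 ± 0.16 (edgeR adjusted p = 0.0469), with 8 of 9 mice lower. The call held in 5 of 18 fits that left out 1 library, and without mouse E2A the difference was -0.32 (adjusted p = 0.0813). At 3 h it was -0.22 ± 0.19 (edgeR adjusted p = 0.417), and between 48 h and 3 h it was -0.17 ± 0.18 (edgeR adjusted p = 0.569).

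Ratios of 2 chains within a library need no scaling between libraries. They were compared as log2 ratios of counts with 0.5 added to each, by exact two-sided permutation tests that were adjusted over 30 tests, of which 14 passed. These tests regrouped libraries freely and did not keep samples of 1 mouse together. Per kb, Lamb1 made up a median of 16.9% of the Lamb1 and Lamb2 transcripts in the injured 48 h flush (7.46% to 30.6%), 7.30% in the injured 3 h flush (3.55% to 14.2%), 0% in the uninjured flush (0% to 2.73%) and 4.33% in the wall (3.59% to 5.09%). The 2 injured groups lay above the uninjured flush throughout. The log2 ratio of Lamb1 to Lamb2 exceeded that of the uninjured flush by 7.0 at 48 h (exact permutation p = 4.11e-05, adjusted p = 0.000617). With the 9 mice kept as pairs, the exact sign-flip p was 0.00391, unadjusted. At 3 h the ratio was higher by 5.63 (exact permutation p = 0.000999, adjusted p = 0.00428). Both permutation p-values are the smallest that free regrouping allows. Within batches the differences were 6.54, 7.47 and 7.01 at 48 h, and 4.13, 6.26 and 7.0 at 3 h. Between 48 h and 3 h the difference was 1.38 (exact permutation adjusted p = 0.0214), but within batches it was 2.40, 1.21 and 0.00. Sizes that rest on libraries without a count depend on the 0.5 added and on depth.

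Among alpha chains the share of Lama4 was lowest in the injured 3 h flush. Lama4 made up a median of 31.8% of the Lama4 and Lama5 transcripts per kb in the injured 48 h flush (25.7% to 80.7%, the highest being mouse E2A), 13.4% in the injured 3 h flush (10.05% to 14.6%), 29.7% in the uninjured flush (18.9% to 56.2%) and 69.2% in the wall (68.3% to 74.2%). The 3 h flushes lay below all others. The log2 ratio of Lama4 to Lama5 at 3 h differed from that of the uninjured flush by -1.56 (exact permutation adjusted p = 0.00428), and at 48 h it was higher by 1.97 than at 3 h (exact permutation adjusted p = 0.00428), or by 1.62 without mouse E2A (adjusted p = 0.00666). At 48 h it did not differ from the uninjured flush beyond the spread (0.41, exact permutation adjusted p = 0.49), and the difference was 0.06 without mouse E2A (adjusted p = 0.879). Over all 3 alpha chains, Lama5 was the largest share in the flush groups, at medians of 67.5%, 86.6% and 65.6% in the injured 48 h, injured 3 h and uninjured flushes, and Lama4 was the largest in the wall at 55.4%.

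Lama2 made up a median of 4.59% of the Lama2 and Lama4 transcripts per kb in the injured 48 h flush, 0% in the injured 3 h flush, 15.1% in the uninjured flush and 26.5% in the wall. The log2 ratio of Lama2 to Lama4 was lower than in the uninjured flush at both times, with differences of -2.85 at 48 h and -5.86 at 3 h (exact permutation adjusted p = 0.00428 each). Without mouse E2A the 48 h difference was -3.16 (adjusted p = 0.00165). Within batches they were -3.70, -0.62 and -4.22 at 48 h, and -7.27, -3.78 and -7.0 at 3 h. Nid1 made up 98.5%, 100%, 100% and 96.1% of the 2 nidogens per kb in the injured 48 h flush, the injured 3 h flush, the uninjured flush and the wall (medians), and its log2 ratio to Nid2 at 48 h differed from that of the uninjured flush by -4.43 (exact permutation adjusted p = 0.000617), or by -3.91 without mouse E2A (adjusted p = 0.00123). With the 9 mice kept as pairs, exact sign-flip tests gave an unadjusted p of 0.00391, the smallest that 9 pairs allow, for Lamb1 to Lamb2 and for Nid1 to Nid2, 0.0156 for Lama2 to Lama4, 0.379 for Lama4 to Lama5 and 0.0586 for perlecan to agrin. The ratio of perlecan to agrin passed in none of the 6 comparisons (exact permutation adjusted p from 0.107 to 0.721).

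**Figure D4:**
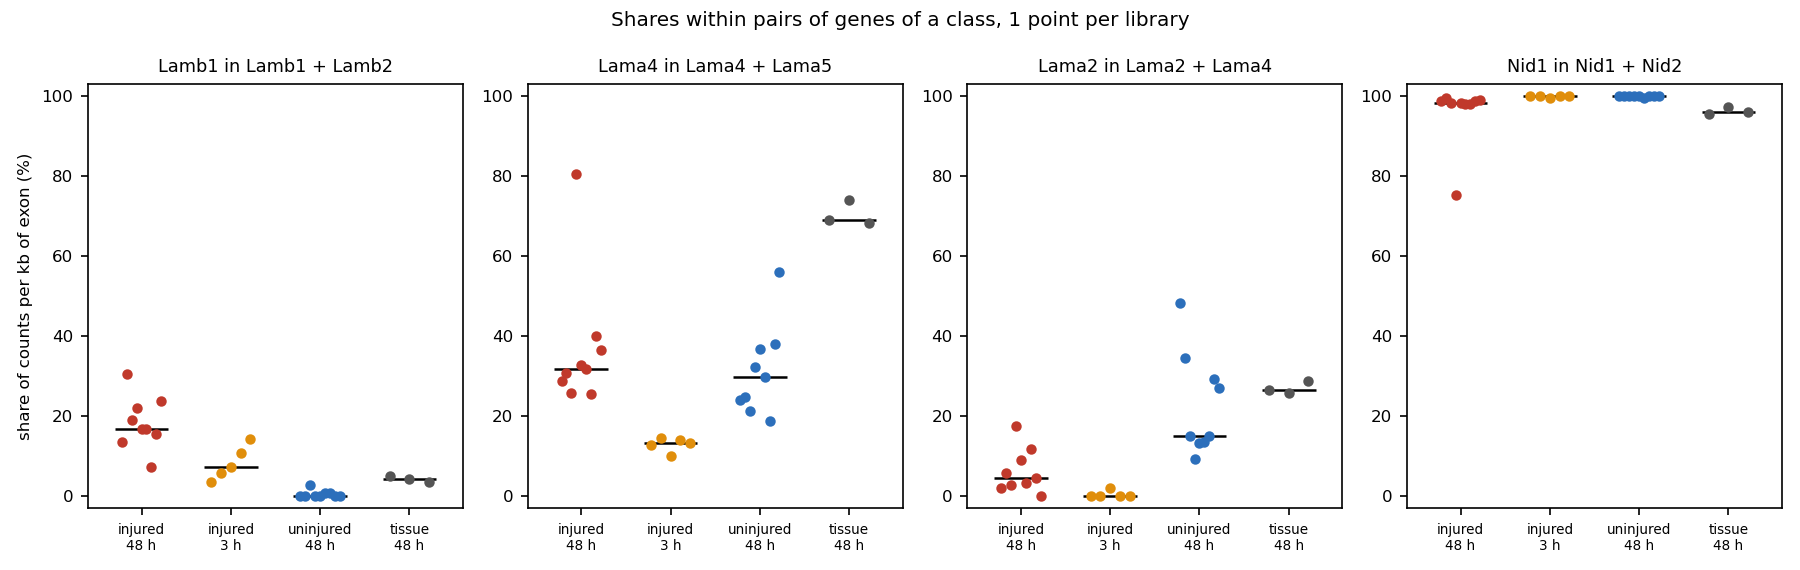
Share in percent of the first gene in the sum of a pair, per kb of exon, for Lamb1 with Lamb2, Lama4 with Lama5, Lama2 with Lama4 and Nid1 with Nid2, in each library of the injured 48 h, injured 3 h, uninjured 48 h and tissue 48 h groups from left to right; the line is the median. The median share of Lamb1 is 16.9% in the injured 48 h flush and 0% in the uninjured flush, and that of Lama4 is 13.4% in the injured 3 h flush and 69.2% in the wall.

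Against the wall, which was sampled at 48 h only, every flush group had less Lama2 and Lama4. The injured 3 h flush came from other mice, so its differences from the wall also hold time and animal. The uninjured flush came from the thoracic segment, so its differences from the abdominal wall also hold segment. These parts cannot be told apart in any comparison with the wall given here. Lama4 reached at most 121 CPM in the injured 48 h flush, 56.2 in the injured 3 h flush and 45.5 in the uninjured flush, and was 197, 205 and 221 CPM in the wall. Lama2 reached at most 34.8 CPM in the injured 48 h flush, 0.937 in the injured 3 h flush and 57.9 in the uninjured flush, and was 92.4, 108 and 113 CPM in the wall. For both genes every flush lay below every wall library. Lama4 differed by a log2 value of -1.61 ± 0.20 in the injured 48 h flush (edgeR adjusted p = 6.13e-07), -2.38 ± 0.24 in the injured 3 h flush (adjusted p = 1.46e-08) and -2.63 ± 0.20 in the uninjured flush (adjusted p = 9.18e-11). Lama2 differed by -3.84 ± 0.81 in the injured 48 h flush (edgeR adjusted p = 0.000509, and -4.66 with an adjusted p of 1.42e-05 without mouse E2A), by -8.92 ± 1.39 in the injured 3 h flush (adjusted p = 1.28e-05) and by -2.62 ± 0.81 in the uninjured flush (adjusted p = 0.00921). With the mouse as a replicate block, the Lama2 difference between the uninjured flush and the wall was -1.99 and did not pass (adjusted p = 0.165). The summed level of the 10 smooth muscle markers was 1066 to 1830 CPM in the injured 48 h flush, 1027 to 1493 in the injured 3 h flush, 233 to 1505 in the uninjured flush and 27942 to 29101 in the wall. The part of these cells in the Lama2 and Lama4 differences was not tested.

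Lamc1 and the beta chains separated the flush groups from the wall by different amounts. Lamc1 ran from 279 to 414 CPM in the injured 48 h flush, 178 to 288 in the injured 3 h flush and 136 to 194 in the uninjured flush, and was 343, 390 and 456 CPM in the wall. The log2 difference from the wall was -0.20 ± 0.13 in the injured 48 h group (edgeR adjusted p = 0.245), -0.73 ± 0.14 in the injured 3 h group (adjusted p = 0.000174) and -1.23 ± 0.12 in the uninjured group (adjusted p = 9.41e-09). The first of these ranges overlapped the wall and the others lay below it. Lamb1 ran from 31.4 to 78.8 CPM in the injured 48 h flush, 12.3 to 33.9 in the injured 3 h flush and 0 to 12.5 in the uninjured flush, and was 18.3, 19.2 and 24.6 CPM in the wall. The log2 difference was 1.46 ± 0.76 in the injured 48 h flush (edgeR adjusted p = 0.139), 0.27 ± 0.77 in the injured 3 h flush (adjusted p = 0.805) and -2.89 ± 0.68 in the uninjured flush (adjusted p = 0.00109). When only the injured 48 h flush and the wall were fitted, the difference was 1.397 and passed (adjusted p = 0.000826), and when only the uninjured flush and the wall were fitted it was -3.07 and did not (adjusted p = 0.0744). Lamb2 ran from 110 to 239 CPM in the injured 48 h flush, 121 to 260 in the injured 3 h flush and 189 to 336 in the uninjured flush, and was 260, 281 and 300 CPM in the wall. Its log2 difference was -0.79 ± 0.20 in the injured 48 h flush (edgeR adjusted p = 0.00329), -0.59 ± 0.23 in the injured 3 h flush (adjusted p = 0.0414) and -0.08 ± 0.21 in the uninjured flush (adjusted p = 0.765). The 3 h call was lost when any 1 wall library was left out.

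Nid1, Lama5 and agrin each passed against the wall in 1 flush group, Nid2 in 2 and perlecan in none. Nid1 ran from 527 to 699 CPM in the injured 48 h flush and was 334, 440 and 460 CPM in the wall, a log2 difference of 0.58 ± 0.14 (edgeR adjusted p = 0.0026, and 0.0599 without batch 3), and it did not pass in the injured 3 h flush (0.02 ± 0.15, adjusted p = 0.949) or the uninjured flush (-0.08 ± 0.14, adjusted p = 0.634). Nid2 had a median of 6.73 CPM in the injured 48 h flush and was 9.63, 10.2 and 14.7 CPM in the wall, with a log2 difference of 1.06 ± 1.16 (edgeR adjusted p = 0.534) and of -0.96 without mouse E2A. The injured 3 h flush had 0.0286 times the Nid2 counts per total of the wall (exact 95% counting interval 0.00924 to 0.0672, edgeR adjusted p = 0.00623, and 0.0797 without batch 1), and the uninjured flush 0.0131 times (0.00355 to 0.0337, adjusted p = 0.000244). Lama5 ran from 184 to 311 CPM in the injured 3 h flush and was 64.6, 89.5 and 92.7 CPM in the wall, a log2 difference of 1.62 ± 0.42 (edgeR adjusted p = 0.00352), and did not pass in the injured 48 h flush (0.51 ± 0.37, adjusted p = 0.312) or the uninjured flush (-0.07 ± 0.36, adjusted p = 0.878). Agrin ran from 88.3 to 138 CPM in the uninjured flush and was 63.2, 65.6 and 66.5 CPM in the wall, a log2 difference of 0.82 ± 0.23 (edgeR adjusted p = 0.0049). Perlecan ran from 600 to 1330 CPM in the uninjured flush and was 515, 645 and 700 CPM in the wall. It passed in no flush, and the uninjured flush had the lowest adjusted p, at a difference of 0.60 ± 0.26 (edgeR adjusted p = 0.0561), which passed with the replicate block (0.65, adjusted p = 0.0375).

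Over the 10 genes, the injured 48 h flush had 1 higher and 3 lower than the wall, where 35.5% of all genes were called. The injured 3 h flush had 1 higher and 5 lower, where 42.7% were called, and the uninjured flush had 1 higher and 5 lower, where 50.1% were called. The shares of all genes called higher and lower were 22% and 13.5% in the injured 48 h flush, 23.4% and 19.2% in the injured 3 h flush, and 25.6% and 24.5% in the uninjured flush. The median log2 difference over the 10 genes was 0.20, -0.28 and -0.66 in the injured 48 h, injured 3 h and uninjured flushes, beside 0.15, -0.02 and -0.17 over all genes. Ranges did not overlap for 5, 5 and 6 of the 10 genes, and for 36.3%, 50.5% and 41.4% of all genes.

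The lists of related genes that follow are to be read against the 42.7% of all genes called at 48 h and the 27.1% called at 3 h, each against the uninjured flush. All 48 h calls in these lists include mouse E2A. Of 21 tested genes of laminin and agrin receptors, 5 were called higher and 2 lower in the injured 3 h flush than in the uninjured flush, with a median log2 difference of 0.15, a share near that of all genes. Itga3, the alpha subunit of a laminin-511 integrin, ran from 226 to 342 CPM in the injured 3 h flush and 60.7 to 156 CPM in the uninjured flush (log2 difference 1.21, edgeR adjusted p = 1.3e-06). Bcam, the Lutheran glycoprotein that binds the Lama5 chain, ran from 326 to 550 CPM in the injured 3 h flush and 130 to 216 CPM in the uninjured flush (1.42, edgeR adjusted p = 2.58e-06). For neither gene did the groups overlap. Itga6, the alpha subunit of other laminin integrins, had medians of 60.0 CPM in the injured 48 h flush and 68.4 CPM in the injured 3 h flush, and counts in 2 of 9 uninjured flushes (log2 differences of 4.26 and 4.21, edgeR adjusted p = 2.57e-05 and 9.5e-05). At 48 h, 6 of the 21 were higher and 3 lower than in the uninjured flush, with a median of 0.34, again a share near that of all genes, the lower ones being Musk, a kinase in the agrin receptor complex of muscle (-3.51), and the sarcoglycans Sgcd (-1.10) and Sgce (-0.68). Against the 3 h flush, 4 of the 21 were lower at 48 h and none higher, a share near the 18.3% of all genes called in that comparison. The 4 were Itga3 (-0.87), Bcam (-0.82), utrophin, Utrn (-0.93), and the tetraspanin Cd151 (-0.44).

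The collagens of the basement membrane split. Of 8 genes, 4 were higher and 3 lower in the injured 48 h flush than in the uninjured flush, and 4 higher and 2 lower in the injured 3 h flush, with median log2 differences of 0.24 and -0.08. Col18a1, whose product carries heparan sulfate and yields endostatin, ran from 56.2 to 261 CPM in the injured 48 h flush, 30.6 to 64.9 CPM in the injured 3 h flush and 0 to 32.9 CPM in the uninjured flush. Its log2 difference from the uninjured flush was 3.30 at 48 h (edgeR adjusted p = 5.93e-07) and 1.57 at 3 h (edgeR adjusted p = 0.00892). Col4a3 and Col4a4, chains of the alpha3-alpha4-alpha5 network of type IV collagen, were lower at 48 h, with log2 differences of -1.68 and -1.64 (edgeR adjusted p = 3.41e-06 and 3.73e-06). Col4a1 and Col4a2, chains of the ubiquitous network, were higher at 3 h by 0.56 and 0.68 (edgeR adjusted p = 0.027 and 0.00684). Of the other laminin chains only 2 passed the filter, and Lama3 was higher at 48 h by 0.80 (edgeR adjusted p = 0.0114).

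Of 17 assembly and binding proteins, 7 were higher and 4 lower in the injured 48 h flush than in the uninjured flush, and 6 higher and 3 lower in the injured 3 h flush, with median log2 differences of 0.29 and 0.08. Loxl2, a lysyl oxidase that acts on type IV collagen, had 112 CPM in the injured 48 h flush of mouse E2A, 3.41 to 18.3 CPM in the other 8, and no count in any 3 h or uninjured flush. Tinagl1, a secreted matrix protein, ran from 418 to 958 CPM in the injured 3 h flush and 264 to 456 CPM in the uninjured flush (log2 difference 0.99). Pxdn, the peroxidase that crosslinks type IV collagen, was higher at 48 h than at 3 h by 2.57, at 50.8 to 164 CPM against 5.35 to 32.5 CPM. Hmcn1, which encodes hemicentin, had no count in any 3 h flush and a median of 15.8 CPM in the uninjured flush.

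Of 22 proteases and inhibitors, 11 were higher and 3 lower at 48 h than in the uninjured flush, with a median log2 difference of 0.83, and 10 higher and 2 lower at 3 h, with a median of 0.93. Adamts1, a secreted protease of proteoglycans, ran from 1239 to 2473 CPM in the injured 3 h flush and 225 to 800 CPM in the uninjured flush (2.25), and was lower at 48 h than at 3 h (-2.39). Of 20 genes of heparan sulfate synthesis and removal, 5 were higher and 5 lower at 48 h, and 6 higher and 6 lower at 3 h, beside 42.7% and 27.1% of all genes called, with median log2 differences of -0.01 and 0.12. Hpse, the heparanase that cuts these chains, was lower at both times (-1.36 at 48 h and -1.53 at 3 h). The sulfotransferase Hs3st1 was higher at both (1.42 and 2.67). Of 11 genes that glycosylate dystroglycan, 1 was higher at 48 h and 2 were lower at 3 h, with medians of 0.18 and -0.09. Over all genes tested the median was 0.18 at 48 h and 0 at 3 h.

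Markers of cell types were compared between the same groups, and their levels were not related to those of the 10 genes across libraries. At 48 h, 7 of 10 smooth muscle markers, 7 of 10 fibroblast markers, 8 of 9 tested macrophage markers, 4 of 4 mesothelial markers, 4 of 5 lymphatic endothelial markers, 4 of 7 neutrophil markers and 3 of 5 platelet markers were higher in the injured flush than in the uninjured flush, and none of these lists held a lower one (edgeR). Of 6 tested pericyte markers 4 were higher and 1 lower, and of 12 endothelial markers 3 were higher and 7 lower. Over all genes tested, 24.6% were called higher and 18% lower in this comparison. Macrophage markers summed to 558 to 5390 CPM in the injured 48 h flush, 180 to 934 in the injured 3 h flush, 75.0 to 240 in the uninjured flush and 529 to 660 in the wall. C1qa had no count in the injured 3 h and uninjured flushes, and Fcgr1 had none in the uninjured flush. Pericyte markers summed to 106 to 409 CPM in the injured 48 h flush, 149 to 546 in the injured 3 h flush, 82.4 to 174 in the uninjured flush, where Kcnj8, Cspg4 and Notch3 had no count, and 4434 to 5262 in the wall. Fibroblast markers summed to 371 to 10516 CPM in the injured 48 h flush, 382 to 912 in the injured 3 h flush, where Pdgfra had no count, 270 to 859 in the uninjured flush and 7107 to 8829 in the wall. Mesothelial markers summed to 0 to 464 CPM in the injured 48 h flush, with a median of 0.253 and the highest value in mouse E2A. Their sum was 0 to 0.625 CPM in the injured 3 h flush, 0 to 5.47 in the uninjured flush and 17.0 to 32.7 in the wall. None of the 4 tested mesothelial markers was called at 3 h. All marker calls at 48 h include mouse E2A. At 3 h, 6 of 7 neutrophil markers were higher than in the uninjured flush, at 124 to 5368 CPM against 34.8 to 201 CPM. So were 4 of 5 platelet markers, at 401 to 874 CPM against 0 to 36.7 CPM. Also higher were 6 of 10 smooth muscle markers, 3 of 5 lymphatic endothelial markers, 4 of 9 macrophage markers and 2 of 10 fibroblast markers. Of 12 endothelial markers 2 were higher and 2 lower at 3 h, and of 6 pericyte markers 2 were higher and 1 lower. Over all genes tested, 16.1% were called higher and 11.1% lower at 3 h. The fibroblast and endothelial shares at 3 h were near those of all genes. The part of these cells in the differences of laminins and nidogens was not tested.

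The genes with the most similar profile to each of the 10 were sought over the 23 flushes, by the mean absolute difference of log2 CPM after each gene was centred on its own mean, among 9592 genes of at least 5 mean CPM. Lamc1 was nearest to Cyb5r3 (0.152) and Tmem43 (0.168), and Nid1 to Psma7 (0.147) and Rpl23 (0.155). Lamb2 and perlecan were each among the other's 2 nearest genes (0.174), beside Stab1 for Lamb2 (0.173) and Plxna4 for perlecan (0.170). Agrin was nearest to the endothelial receptors Tek (0.196) and Tie1 (0.198). Lama4 was nearest to Ccng1 (0.253) and Stip1 (0.254), Lama5 to Slc4a8 (0.276) and Plec (0.30), and Lamb1 to Tuba1c (0.440) and Iffo2 (0.506). The largest distances were those of Loxl2 (0.543) and Reps2 (0.605) to Nid2, and of Sema3e (0.674) and Mdga2 (0.887) to Lama2. A distance is to be read beside the gene's own mean absolute deviation. That was 2.67 for Lamb1, 2.12 for Nid2, 1.82 for Lama2, 0.736 for Lama5 and 0.465 for Lama4. It was 0.440 for Lamc1, 0.413 for perlecan, 0.399 for Lamb2 and 0.318 for both Nid1 and agrin. The distances alone therefore do not rank how closely the profiles match.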

How the data were processed

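RNA sequencing data of 26 libraries were used as deposited. Per the file headers, the authors' table holds raw read counts per gene symbol. Per the submitters' processing notes, the tools included HISAT2 2.0.3, HTSeq and DESeq2 1.14.1, with build GRCm38. Neither annotation nor strand setting is given in the sources used here. On GENCODE M21 Lama2, Nid1 and Nid2 share 3.862%, 2.06% and 8.446% of their exon length with a gene on the opposite strand. The authors' deposited tables of comparisons hold a log2 fold change and an adjusted p-value per gene and were used only where named. Tables of scaled and transformed values were not used.

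The 10 genes and all lists were chosen with earlier results of these data known. The counts were tested with edgeR 4.0.16 (R 4.3.3; TMM, low-count filter by group, all 26 libraries in 1 quasi-likelihood fit, no covariate), with two-sided p-values adjusted by Benjamini-Hochberg over 13884 genes and a threshold of 0.05; 2407 genes had no count anywhere. Log2 CPM used a prior count of 2, and SEs came from the F statistic. Levels per kb used union exon lengths of GENCODE M21. Chain ratios were compared with scipy 1.17.1. The test was checked on simulated counts. The text names the 10 genes, up to 4 genes per list and comparison by smallest p, and the 2 nearest profiles of each of the 10. No pair of libraries of a group was alike (smallest chi-square per degree of freedom 7.18). Injured, uninjured and wall samples of 1 mouse share an ID in the labels; deviations of injured and uninjured flushes of a mouse correlated at -0.127 to 0.207, those of injured flush and wall at 0.014 to 0.134, and those of uninjured flush and wall at 0.0395 to 0.16. Depths are given with the results; counting intervals cover counting error only. Alternatives were other scalings, filters, sample sets, DESeq2 1.42.0, thinning, batches, the mouse as a block and leaving out each library.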

Additional observations from a re-analysis of the deposited data

Results flagged for a closer look

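In 11 of 45 sets of values (a gene or chain ratio in 1 group) a single library lay far from the rest. The cutoff is set to flag about 1 in 20 sets of normally distributed values. Sets in which all libraries but 1 had no count are always flagged, and the ratios reuse the same genes. The 2 rates therefore cannot be compared. In mouse E2A of the injured 48 h group, log2 CPM was 6.926 for Lama4 (5.516 to 6.14 in the other 8), 4.793 for Lama5 (6.478 to 7.509) and 7.42 for Nid2 (1.296 to 3.14). The log2 ratio of counts in that library was 2.141 for Lama4 to Lama5 (-1.448 to -0.4921 in the other 8) and 2.031 for Nid1 to Nid2 (6.029 to 8.251). Mouse E3C of the same group had no Lama2 count, and its log2 ratio of Lama2 to Lama4 was -10.12 (-5.008 to -1.796).

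Single libraries with a few counts stood apart where all others had none. Mouse C2A of the injured 3 h group was at 0.3439 for Lama2 and 0.9215 for Nid2, and mouse E2C of the uninjured group was at 0.2219 for Nid2, with every other library of the group at -1.592 on the log2 CPM scale. The log2 ratio of Nid1 to Nid2 was 8.124 in mouse C2A (10.77 to 11.63 in the other 3 h flushes) and 8.613 in mouse E2C (10.35 to 11.86 in the other uninjured flushes).

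For 6 genes the difference from the uninjured flush was not the same at 48 h and at 3 h. The log2 difference at 48 h minus that at 3 h was 5.08 for Lama2, 0.769 for Lama4, -1.1 for Lama5, 0.531 for Lamc1, 0.561 for Nid1 and 6.13 for Nid2 (edgeR adjusted p = 0.00661, 0.00624, 0.00987, 0.00129, 0.00152 and 0.00233). Because the uninjured flush is common to both, these are the same values as the direct comparison of the 48 h and 3 h flushes.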

How the results depend on the processing

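Across all alternatives, 1530 log2 differences of the 10 genes were recomputed, 904 of them for the 35 called in the fit of all libraries: 118 calls were lost, 26 values not called before passed, and 1 called value changed sign (Lamb2 at 3 h against uninjured, 0.03687 in batch 1 alone). Sign changes among values past the threshold in neither fit numbered 65. Where a cause is not shown by fewer libraries, it was not tested. Counts of genes called among the 10 moved as follows. At 3 h against uninjured, 1 was lower without the filter, with batch as a covariate, without batch 2 or 3 and in batch 1 alone, and 0 in batch 2 or 3 alone; 0 and 1 were higher in batches 2 and 3 alone. At 48 h against uninjured, 1 was lower without batch 3 and in batch 1 alone, 0 in batch 2 or 3 alone, and 3 were higher in batch 2 or 3 alone. At 48 h against 3 h, 0 were lower without batch 3, and 0 were higher or lower in any batch alone. At 48 h against the wall, 2 were higher with only the 2 groups fitted and in thinned counts, 0 without batch 3 and in batch 1 or 2 alone, and 0 and 1 were lower in batches 2 and 3 alone. At 3 h against the wall, 2 were higher in thinned counts and 0 in batch 2 or 3 alone, and 3, 2 and 2 were lower in batches 1, 2 and 3. For uninjured against the wall, 2 were higher with only the 2 groups fitted, without batch 1, in thinned counts and with the mouse as replicate block, and in each batch alone 0 were higher and 3 lower. Each batch alone holds 1 wall library, and batch 3 holds 1 injured 3 h library, so these fits assume that a lone library varies like the other groups, and where both are lone (3 h against the wall in batch 3) the spread comes from other groups only. The replicate block added Lama5 to the genes higher at 48 h against uninjured (0.62, adjusted p = 0.039), and for uninjured against the wall it added Hspg2 and lost Lama2 as given above; in the paired fits no other call among the 10 changed. With 1 library left out, the number lower at 3 h against uninjured was 1 to 3, and the number higher was 1 to 2 at 3 h against the wall and 1 to 2 for uninjured against the wall.

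Chain ratios moved beyond the spread in single batches. Lamb1 to Lamb2 was 2.401 and 0.003713 at 48 h against 3 h in batches 1 and 3, and -0.1642 and 2.157 at 3 h against the wall. Lama4 to Lama5 was -4.396 at 3 h against the wall in batch 2. Lama2 to Lama4 was -7.274 and -3.777 at 3 h against uninjured in batches 1 and 2. In batch 2, Nid1 to Nid2 was -0.7741 at 48 h and 3.875 at 3 h against the wall. Hspg2 to Agrn in batches 1 and 2 was 0.4737 and -0.8051 at 3 h against uninjured, and -0.5999 and 0.608 at 48 h against 3 h, and -0.7493 for uninjured against the wall in batch 1. Ranges with 1 library left out, for ratios whose call changed, were: at 48 h against 3 h, 1.095 to 1.633 for Lamb1 to Lamb2 and 2.698 to 3.738 for Lama2 to Lama4; at 48 h against the wall, 2.106 to 2.414 for Lamb1 to Lamb2, -2.394 to -1.913 for Lama4 to Lama5, -3.636 to -2.596 for Lama2 to Lama4, 0.8317 to 1.609 for Nid1 to Nid2 and -0.5397 to -0.3242 for Hspg2 to Agrn; for uninjured against the wall, -5.277 to -4.534 for Lamb1 to Lamb2, -2.643 to -2.323 for Lama4 to Lama5 and 5.369 to 5.775 for Nid1 to Nid2. Mean wall levels moved beyond their SD for Agrn, to 67.83 CPM with DESeq2 size factors and 58.75 with plain totals, and with plain totals for Lama4 (187.1) and Lamb2 (253.3). Without the filter the share of higher calls over all genes at 48 h against the wall was 50.1%, beside 61.9% with it. Depth limits the values of Lama2, Lamb1 and Nid2 at or near 0. Lamb1 and Nid2 had no count in 6 and 8 of 9 uninjured flushes, a group of 1755773 to 5294304 counts per library. Lama2 and Nid2 each had none in 4 of 5 injured 3 h flushes, a group of 2657169 to 4346847 counts. Lama2 also had none in mouse E3C of the injured 48 h group, at 7193546 counts, whereas every uninjured flush had Lama2 counts.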
